A study of Homo sapiens with 24 samples.

Results

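The 10 genes described here belong to the cellular response to low oxygen and to the breakdown of glucose: HIF1A, VEGFA, ADM, SLC2A1, HK2, PFKFB3, ENO1, LDHA, BNIP3 and CA9. They were followed through 3 lists of chromatin sites bound by the SWI/SNF chromatin remodelling complex, by taking every peak whose deposited annotation gives 1 of these genes as the nearest transcription start site (TSS). The rule found 40 of 51504 BRG1 peaks, 28 of 22157 BRM peaks and 9 of 6489 SNF5 peaks, for 10 of 20037 protein-coding genes.

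The lists come from chromatin immunoprecipitation with sequencing in the established cell line RWPE1, grown from benign human prostate epithelium. The cells carried a lentivirus for the long noncoding RNA SCHLAP1, known from prostate tumours, and had been selected in 2.5 ug/mL blasticidin for at least 1 week. SWI/SNF moves nucleosomes with either BRG1 or BRM as its ATPase, and SNF5 belongs to its core. Each was precipitated from chromatin that had been cut with MNase, in 2 samples per subunit, and 1 list per subunit was analysed. No list of a subunit in the LACZ control cells was used here, so nothing below measures an effect of SCHLAP1. The lists hold positions and no read counts, so neither depth nor spread between replicates can be given. A gene without a peak is a gene without a called site, and a peak does not show that the gene is expressed. Markers of cell types were only counted, since a peak near them does not identify the cells. The basal epithelial markers KRT5, KRT14, TP63 and ITGB4 were looked up, of which BRG1 named 4, BRM 3 (not TP63) and SNF5 1. Of the simple epithelial markers KRT8, KRT18, EPCAM and CDH1, BRG1 named 4, BRM 4 and SNF5 2. BRG1 names 63.5% of all protein-coding genes, BRM 49.6% and SNF5 19.7%. The luminal prostate marker KLK3 and the hepatocyte markers ALB and APOA1 were named in no list. BRG1 peaks named the blood markers PTPRC and CD3E and the endothelial marker CDH5, and BRM and SNF5 named no blood or endothelial marker.

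HIF-1 is a transcription factor whose alpha subunit, the product of HIF1A, is destroyed when oxygen is plentiful and accumulates when it is scarce. It binds DNA at hypoxia response elements, whose core is ACGTG or GCGTG, and turns on genes that bring in blood vessels, take up glucose, run glycolysis and limit the damage done by low oxygen. In epithelial cells many of these genes are also active under normal oxygen, because growing cells use glycolysis as well.

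Promoter sequences are shown first, because the start of each gene is where the lists are compared below. RefSeq windows of 300 bases (GRCh38.p14, the same assembly as the hg38 coordinates of the lists), from 250 bases before to 50 bases after a start, were matched for 9 of the 10 genes, in 13 windows. VEGFA had no entry. The sequences run 5′ to 3′ on the strand of the gene, and capitals mark ACGTG or GCGTG on either strand (read as CACGT or CACGC on the opposite one). Overlapping matches, as in CACGTG, were counted as 1 site. HIF1A, PFKFB3, ENO1 and LDHA are shown because peaks of all 3 lists marked them as promoters. BNIP3 and CA9 were added after their values were seen, since all their sites lay outside BRG1 peaks.
HIF1A, chr14:61695263-61695562, plus strand: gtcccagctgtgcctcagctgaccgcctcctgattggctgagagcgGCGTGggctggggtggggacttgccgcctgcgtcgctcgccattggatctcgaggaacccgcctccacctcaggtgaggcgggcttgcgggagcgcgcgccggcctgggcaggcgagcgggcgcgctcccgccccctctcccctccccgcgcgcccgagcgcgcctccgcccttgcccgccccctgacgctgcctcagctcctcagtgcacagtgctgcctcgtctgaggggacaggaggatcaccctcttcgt
PFKFB3, chr10:6144671-6144970, plus strand: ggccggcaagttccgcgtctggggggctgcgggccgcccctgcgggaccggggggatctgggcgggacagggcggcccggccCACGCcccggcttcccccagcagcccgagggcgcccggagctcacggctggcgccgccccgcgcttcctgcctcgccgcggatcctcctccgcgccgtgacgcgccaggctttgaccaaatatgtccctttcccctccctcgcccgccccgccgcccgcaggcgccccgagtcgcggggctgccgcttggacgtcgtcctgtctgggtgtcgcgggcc
ENO1, chr1:8878637-8878936, minus strand: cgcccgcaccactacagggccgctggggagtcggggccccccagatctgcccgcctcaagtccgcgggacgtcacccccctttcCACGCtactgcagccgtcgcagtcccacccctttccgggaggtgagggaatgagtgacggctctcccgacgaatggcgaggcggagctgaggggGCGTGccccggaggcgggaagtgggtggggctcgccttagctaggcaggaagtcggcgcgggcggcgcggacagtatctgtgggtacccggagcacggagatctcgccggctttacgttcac
LDHA, chr11:18394313-18394612, plus strand: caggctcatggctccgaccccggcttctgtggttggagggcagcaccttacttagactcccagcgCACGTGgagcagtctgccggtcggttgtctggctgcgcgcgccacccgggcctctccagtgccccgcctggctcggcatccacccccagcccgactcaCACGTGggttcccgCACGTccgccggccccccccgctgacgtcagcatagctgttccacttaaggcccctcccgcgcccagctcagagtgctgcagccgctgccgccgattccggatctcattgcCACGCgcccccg
BNIP3, chr10:131981874-131982173, minus strand: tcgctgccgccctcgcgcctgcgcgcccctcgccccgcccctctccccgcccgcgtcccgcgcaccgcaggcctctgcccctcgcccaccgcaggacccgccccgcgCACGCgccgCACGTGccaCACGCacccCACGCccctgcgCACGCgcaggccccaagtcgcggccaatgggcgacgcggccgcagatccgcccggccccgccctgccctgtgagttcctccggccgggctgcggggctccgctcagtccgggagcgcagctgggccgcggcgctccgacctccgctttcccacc
CA9, chr9:35673678-35673977, plus strand: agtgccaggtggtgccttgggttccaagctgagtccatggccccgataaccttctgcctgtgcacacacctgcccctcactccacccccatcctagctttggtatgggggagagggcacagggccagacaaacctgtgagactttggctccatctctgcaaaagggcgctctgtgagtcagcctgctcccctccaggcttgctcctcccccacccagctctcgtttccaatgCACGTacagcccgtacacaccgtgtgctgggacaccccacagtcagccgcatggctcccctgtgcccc

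At least 1 such site stood in 12 of the 13 windows, and in a window of each of the 9 genes. Of 35116 RefSeq promoter windows of the same length, 48.4% held one, and the share was 63.6% among windows met by a BRG1 peak and 66.7% among those with a GC content of 65% or more. The windows of these 9 genes were rich in G and C, from 62.0 to 80.7% but for the second window of HIF1A (31.7%), which held no site, against a median of 58.7% over all windows. BNIP3 had the most sites, 5, a number reached by 0.945% of all windows. The first window of LDHA held 4, as did the second window of HK2 (2.66% of all windows hold 4 or more). The shares for 4 and 5 sites are over windows of any GC content. These windows of BNIP3, LDHA and HK2 had 80.7, 70.0 and 71.7%. The AP-1 letters TGACTCA, searched on both strands, stood in the CA9 window alone of the 13, and in 4.95% of all windows. Of the 25 sites in the 13 windows, 18 lay in BRG1 peaks, 22 in BRM peaks and 1 in an SNF5 peak. All 13 windows were met by a BRG1 peak, 11 by BRM and 4 by SNF5, against 43.1%, 33.3% and 10.2% of all windows. A match is a run of letters and does not show that HIF-1 binds there.

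BRG1 named all 10 genes with at least 1 peak, BRM 9 and SNF5 6. Over all protein-coding genes the shares were 63.5% for BRG1, 49.6% for BRM and 19.7% for SNF5. HIF1A, VEGFA, SLC2A1, PFKFB3, ENO1 and LDHA were named in all 3 lists (17.9% of protein-coding genes were). ADM, HK2 and BNIP3 were named by BRG1 and BRM (29.2% of protein-coding genes were named by these lists and not by SNF5), and CA9 by BRG1 alone. Counting only peaks annotated as promoter, BRG1 named 10 genes (55.6% of protein-coding genes), BRM 9 (45.7%) and SNF5 5 (18.1%). HIF1A, VEGFA, PFKFB3, ENO1 and LDHA had such a peak in all 3 lists, as did 15.7% of protein-coding genes. The genes were picked with earlier results of these lists in view, so these shares describe them and are not tested.

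**Figure D1:**
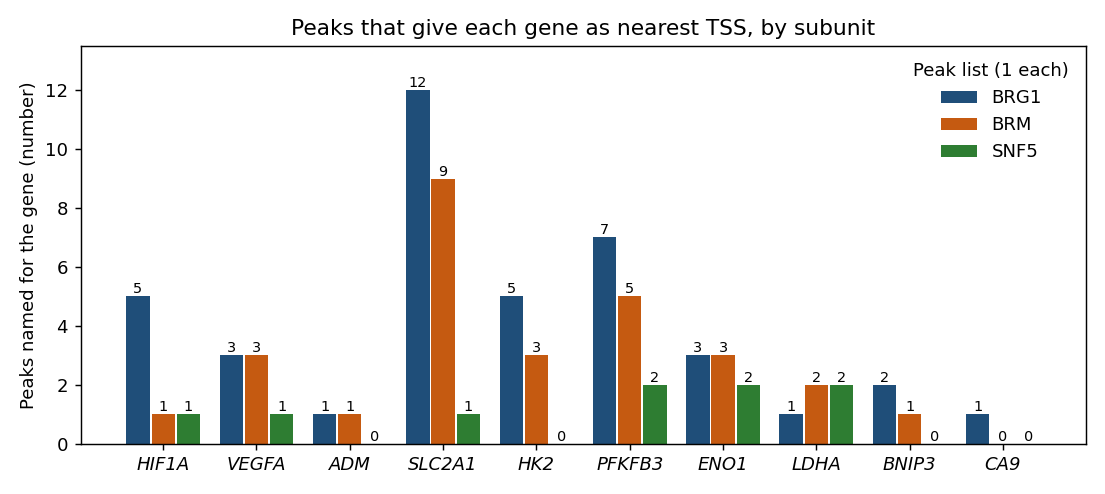
Number of peaks that give each gene as nearest TSS (vertical axis) in the BRG1, BRM and SNF5 lists, 1 list per subunit and so without error bars. SLC2A1 has the most peaks in the BRG1 and BRM lists (12 and 9), and CA9 has 1 BRG1 peak and none of the other subunits.

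The genes differed widely in the number of their peaks. SLC2A1 had 12 BRG1 peaks, a number reached by 1.31% of protein-coding genes, and 9 BRM peaks, reached by 0.369%. PFKFB3 followed with 7 BRG1 and 5 BRM peaks (4.50% and 2.15% of protein-coding genes have as many). HIF1A and HK2 had 5 BRG1 peaks each, VEGFA and ENO1 3, BNIP3 2, and ADM, LDHA and CA9 1. SNF5 named PFKFB3, ENO1 and LDHA with 2 peaks each and HIF1A, VEGFA and SLC2A1 with 1. For comparison with gene length, PFKFB3 spans 181717 bp, HK2 59233 bp, HIF1A 52746 bp and SLC2A1 33516 bp, while ADM spans 2325 bp.

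By the deposited annotation, 17 of the 40 BRG1 peaks (42.5%, 95% exact binomial interval 27.04 to 59.1), 19 of the 28 BRM peaks (67.9%, 47.6 to 84.1) and 7 of the 9 SNF5 peaks (77.8%, 40.0 to 97.2) lay at a promoter. The whole lists had 37.3%, 62.8% and 81.3% there, inside each interval. These intervals cover counting error only and treat peaks as independent, which neighbouring peaks are not. Introns held 18 BRG1, 8 BRM and 2 SNF5 peaks. Distal sequence held 3 BRG1 peaks (7.50%, 1.57 to 20.4) and 1 BRM peak, and the BRG1 interval ended below the 21.9% of the whole list. As the peaks of a gene are not independent, this margin is not read as a difference. Annotated promoters were not always at the RefSeq start of the gene, which was taken as the outer end of its span. The middle of 8 of the 17 BRG1 and 7 of the 19 BRM promoter peaks lay more than 2000 bp from the RefSeq start, at starts inside ENO1, PFKFB3, SLC2A1 and VEGFA and, for BRG1, HIF1A. None of the 7 SNF5 promoter peaks lay that far.

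At the RefSeq starts, broad BRG1 peaks were the rule, whichever gene the annotation named. A BRG1 peak covered the start of 9 genes, a BRM peak that of 8 (all but HK2 and CA9) and an SNF5 peak that of 3 (VEGFA, PFKFB3 and LDHA). Of 15843 protein-coding starts with a strand in the RefSeq table, 48.2% were covered by BRG1, 36.5% by BRM and 7.24% by SNF5. Within 1 kb of the start there was a BRG1 peak at 10 genes (62.1% of protein-coding starts), a BRM peak at 9 (51.4%) and an SNF5 peak at 6 (20.7%). The same 6 genes, HIF1A, VEGFA, SLC2A1, PFKFB3, ENO1 and LDHA, had all 3 there (20.3%). The BRG1 peaks on these starts had a median width of 2955 bp (876 to 6295), against 1344 bp over all covered starts, and 7 of the 9 were wider than that. The BRM peaks had a median of 1274 bp (911 to 2363), against 859 bp, and all 8 were wider. Width is not an amount of protein.

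**Figure D2:**
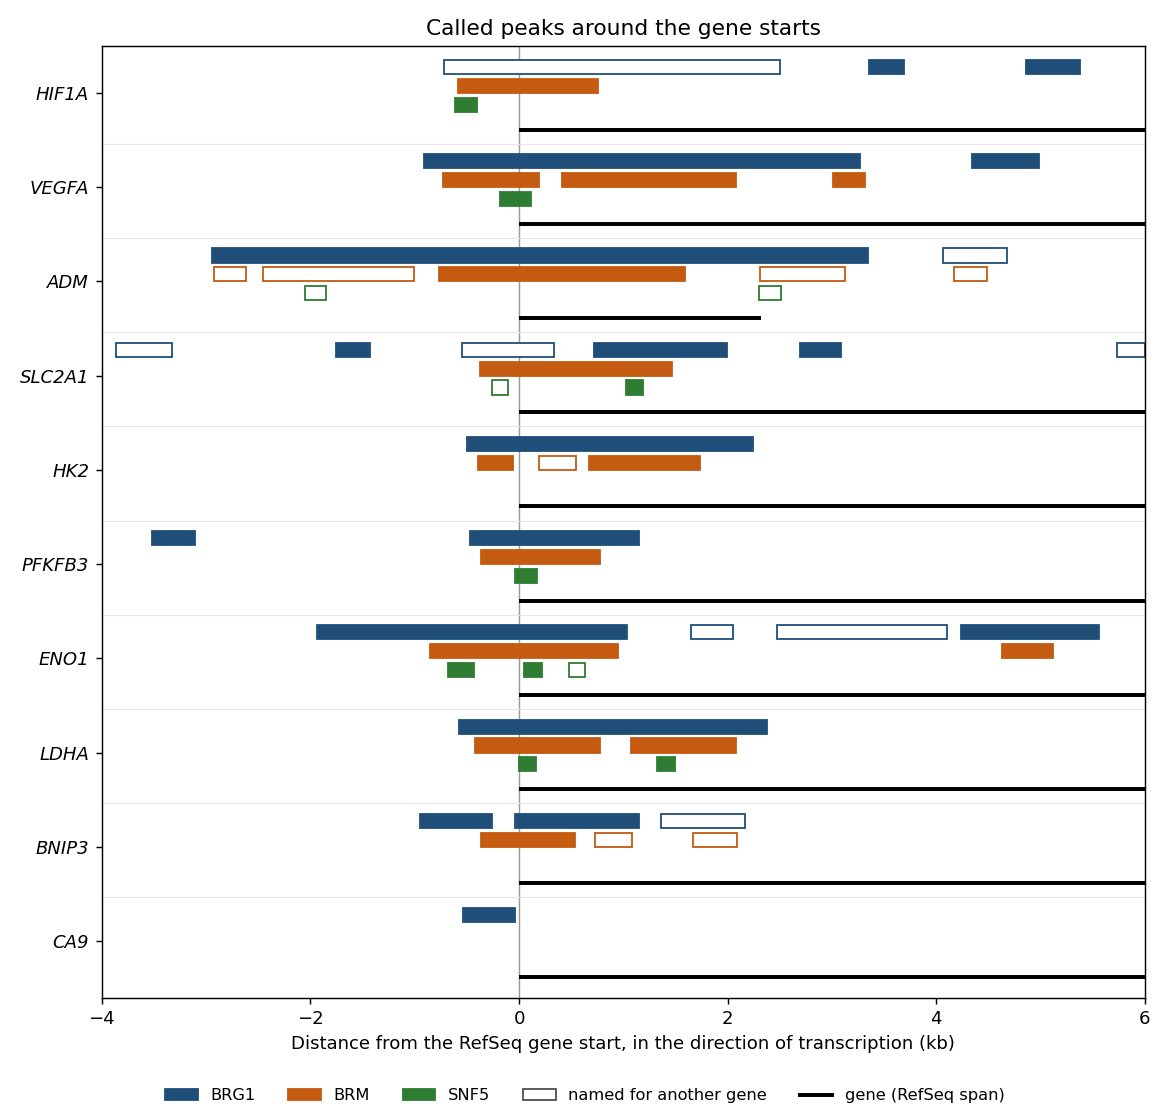
Peaks of BRG1, BRM and SNF5 between 4 kb before and 6 kb after the RefSeq start of each gene (horizontal axis, distance in kb in the direction of transcription, to scale). Filled boxes are peaks named for the gene, open boxes are peaks named for another gene, and black lines are the gene, which run on past the edge for all but ADM. BRG1 boxes cross the start in all rows but that of CA9.

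HIF1A, which encodes the oxygen-regulated subunit of HIF-1, lies on the plus strand of chromosome 14 (61695513 to 61748258). Its 5 BRG1 peaks were narrow, from 335 to 521 bp, had their middles 3520 to 24790 bp into the gene, and met no BRM or SNF5 peak. The start itself was covered by a BRG1 peak of 3230 bp (61694790 to 61698019) that the annotation names for the antisense gene HIF1A-AS1. That peak held the BRM peak of HIF1A (1348 bp, 61694928 to 61696275), which covered the start as well, and the SNF5 peak of HIF1A (218 bp, 61694896 to 61695113), which ended 400 bp before it. The promoter of HIF1A was therefore in all 3 lists, and the count by name put its broad BRG1 site under another gene. The single GCGTG of its first window lay in both the BRG1 and the BRM peak.

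Both genes for secreted signals carried some of the widest BRG1 peaks of the list. VEGFA encodes the main growth factor for blood vessels and lies on chromosome 6 (43770211 to 43786487). Its promoter peak of BRG1 was 4186 bp wide (43769298 to 43773483), wider than 99.7% of the list. Inside or across its edge lay 3 BRM peaks of 926, 1662 and 311 bp, and inside it an SNF5 peak of 300 bp (43770024 to 43770323) on the start. VEGFA had 2 further BRG1 peaks, one of 724 bp before the gene, at a deposited distance of 10810 bp, and one of 641 bp in the gene, and neither met another list.

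ADM encodes adrenomedullin, a peptide that widens blood vessels, on chromosome 11 (10305073 to 10307397). Its only named BRG1 peak was 6295 bp wide (10302126 to 10308420), the 19th widest of all BRG1 peaks, and reached from 2947 bp before the start to past the end of the gene. The BRM peak of ADM was 2363 bp wide (10304307 to 10306669), wider than 99.2% of its list. No SNF5 peak was named for ADM, but 2 lay inside its BRG1 peak. The first, which ended 1848 bp before the start, was named for AC080023.1 and the second (209 bp, at the end of the gene) for the neighbour AMPD3. The annotation also gave 3 of the 4 BRM peaks inside the ADM BRG1 peak to these neighbours.

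SLC2A1 encodes GLUT1, the glucose transporter of most cells, on the minus strand of chromosome 1 (42925353 to 42958868). Its start was covered by a BRG1 peak of 876 bp (42958537 to 42959412) named for SLC2A1-AS1 and by a BRM peak of 1846 bp named for SLC2A1 (42957398 to 42959243). That BRM peak held 2 SNF5 peaks, one of 159 bp within the gene named for SLC2A1 and one of 151 bp before the start named for SLC2A1-AS1. The widest BRG1 peaks of SLC2A1 were inside the gene. There, 3 BRG1 peaks of 2782, 966 and 2284 bp lay only 51 and 61 bp apart and together spanned 6144 bp (42940168 to 42946311), from 12557 to 18700 bp after the start. This block met 5 BRM peaks and no SNF5 peak. A further intron peak of 2542 bp (42936004 to 42938545) met 2 BRM peaks. Of its 12 BRG1 peaks, 6 overlapped BRM and 6 overlapped neither list, the latter 331 to 528 bp wide. A BRG1 peak of 888 bp inside the gene was named for AC099795.2 and met neither list.

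HK2 encodes the hexokinase that many growing cells use to trap glucose, on chromosome 2 (74834127 to 74893359). A BRG1 peak of 2749 bp (74833627 to 74836375) covered the start, and 3 BRM peaks lay in it, of 339 bp, 358 bp (named for AC019069.1) and 1071 bp. The start fell between the first and second of them, 59 bp from the nearest edge. An intron peak of 2563 bp (74843712 to 74846274) held a BRM peak of 830 bp. SNF5 had no peak near HK2: the nearest lay 124282 bp from the start. Both windows of HK2 held the core letters, 3 and 4 sites, all under the BRG1 peak at the start. Toward the end of HK2, BRG1 peaks of 1406 and 412 bp were named for LINC01291 and met neither list.

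PFKFB3 encodes an enzyme that makes fructose 2,6-bisphosphate, an activator of glycolysis, on chromosome 10 (6144921 to 6326637). Its first start was covered by all 3 lists, with a BRG1 peak of 1619 bp (6144450 to 6146068), a BRM peak of 1144 bp and an SNF5 peak of 210 bp, each inside the one before. The annotation marks 3 more BRG1 promoter peaks at starts inside the gene, 19022, 58194 and 77728 bp downstream by their middles. The first and second of these met a BRM peak. An intron site 74321 bp downstream was in all 3 lists (875, 1080 and 196 bp for BRG1, BRM and SNF5). This SNF5 peak and the one at SLC2A1 were the 2 of the 9 not annotated as promoter. Another 8 BRG1 and 2 BRM peaks in or within 1 kb of PFKFB3 were named for AL157395.1, Y_RNA, AL137145.2 or SDCBPP1.

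**Figure D3:**
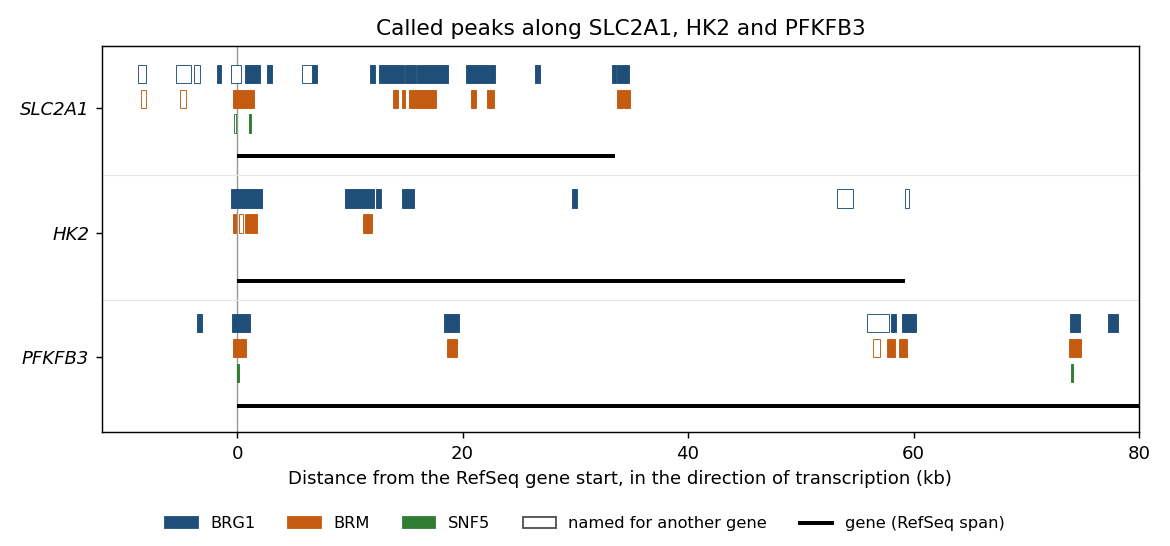
Peaks of the 3 lists along SLC2A1, HK2 and PFKFB3, from 12 kb before to 80 kb after the RefSeq start (horizontal axis, kb, to scale; PFKFB3 runs on past the edge). Filled boxes are peaks named for the gene and open boxes peaks named for another gene. The block of BRG1 and BRM peaks inside SLC2A1 has no SNF5 peak, and PFKFB3 has an SNF5 peak at its start and one 74 kb downstream.

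ENO1 encodes enolase 1, which acts late in glycolysis, on the minus strand of chromosome 1 (8861000 to 8878686). The BRG1 peak at its start was 2970 bp wide (8877652 to 8880621) and held a BRM peak of 1803 bp (8877734 to 8879536) and 3 SNF5 peaks of 156, 179 and 247 bp. The first of these was named for ENO1-IT1, a transcript that RefSeq lists as a synonym of ENO1. No other of the 10 genes had 3 SNF5 peaks within 1 kb of its start. None of the 3 covered the RefSeq start, from which the nearest edge was 46 bp away. Further into the gene, BRG1 peaks of 1322 and 1111 bp each met a BRM peak (489 and 392 bp), and 2 BRG1 peaks named for ENO1-IT1 met neither list.

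LDHA encodes the lactate dehydrogenase subunit that turns pyruvate into lactate, on chromosome 11 (18394563 to 18408425). By name it had 1 BRG1 peak, of 2955 bp (18393988 to 18396942). Under it lay 2 BRM peaks of 1199 and 1006 bp, and each of these held 1 SNF5 peak, of 165 and 172 bp. A BRG1 peak of 331 bp near the end of the gene was named for AC084117.1 and met neither list. The first RefSeq window of LDHA was met by all 3 lists. The second, 18396101 to 18396400, was met by BRG1 and BRM, and the second SNF5 peak (18395891 to 18396062) ended just before it. The CACGC at the end of the first window was the only 1 of the 25 sites found in the 13 windows that lay in an SNF5 peak. LDHA stood in the region with the fewest BRG1 and BRM peaks of the 10, 33 and 13 within 1 Mb of its start, and with 5 SNF5 peaks, as many as HIF1A. For VEGFA these were 111, 63 and 17.

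BNIP3 encodes a protein that marks mitochondria for removal, on the minus strand of chromosome 10 (131967684 to 131981923). Its 2 BRG1 peaks, of 1185 and 684 bp, flanked a gap of 223 bp just before the start. A BRM peak of 911 bp (131981382 to 131982292) bridged the gap and met both. All 5 ACGTG or GCGTG sites of its window, from 143 to 100 bases before the start, lay in the gap, outside the BRG1 peaks and inside the BRM peak. The nearest SNF5 peak was 20600 bp from the start. A BRM peak of 357 bp inside the wider BRG1 peak was named for AL162274.1. So were a BRG1 peak of 810 bp and a BRM peak of 431 bp further into the gene.

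CA9 encodes a carbonic anhydrase on the cell surface that is scarce in most tissues and strongly induced by low oxygen, on chromosome 9 (35673928 to 35681159). Its 1 peak was a BRG1 peak of 497 bp (35673392 to 35673888), narrower than the list median of 667 bp, which ended 40 bp before the start. The nearest BRM and SNF5 peaks lay 8452 and 8565 bp away. The CACGT of the CA9 window, 18 to 14 bases before the start, was in no peak. CA9 was the 1 gene of the 10 with no BRM peak and with no peak on its start.

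Overlap between lists was counted from 1 bp on, so an overlapping peak need not lie inside the other. All 28 BRM peaks overlapped BRG1 (exact interval 87.7 to 100%; 92.2% in the whole list), and each of the 9 SNF5 peaks met both a BRG1 and a BRM peak (66.4 to 100%; 96.1% and 91.9% in the whole list). In the other direction, 21 of the 40 BRG1 peaks overlapped BRM (52.5%, 36.1 to 68.5; whole list 35.7%) and 7 overlapped SNF5 (17.5%, 7.34 to 32.8; whole list 9.58%). Of the 28 BRM peaks, 8 overlapped SNF5 (28.6%, 13.2 to 48.7; whole list 21.9%). For BRG1 peaks that overlapped BRM, the lower bound of 36.1% lay just above the 35.7% of the whole list, and the other intervals held the share of their list. The intervals treat peaks as independent, which neighbouring peaks of a gene are not, so this margin is not read as a difference. All 7 BRG1 peaks with SNF5 also met BRM (9.22% of the whole list met both), and 19 of the 40 met neither (64% of the whole list). The 7 stood at ADM, ENO1, LDHA, VEGFA, SLC2A1 (1 each) and PFKFB3 (2), 5 of them at promoters. Counted by place, 12 of 17 promoter peaks of BRG1 met BRM (70.6%; 61.6% of all BRG1 promoter peaks do) and 9 of 23 others did (39.1%; 20.2%). For SNF5 these were 5 of 17 (29.4%; 21.2%) and 2 of 23 (8.70%; 2.69%). With the 3 SNF5 peaks named for other genes within 1 kb of the genes included, all 12 SNF5 peaks of 7 genes overlapped BRG1 and BRM peaks.

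**Figure D4:**
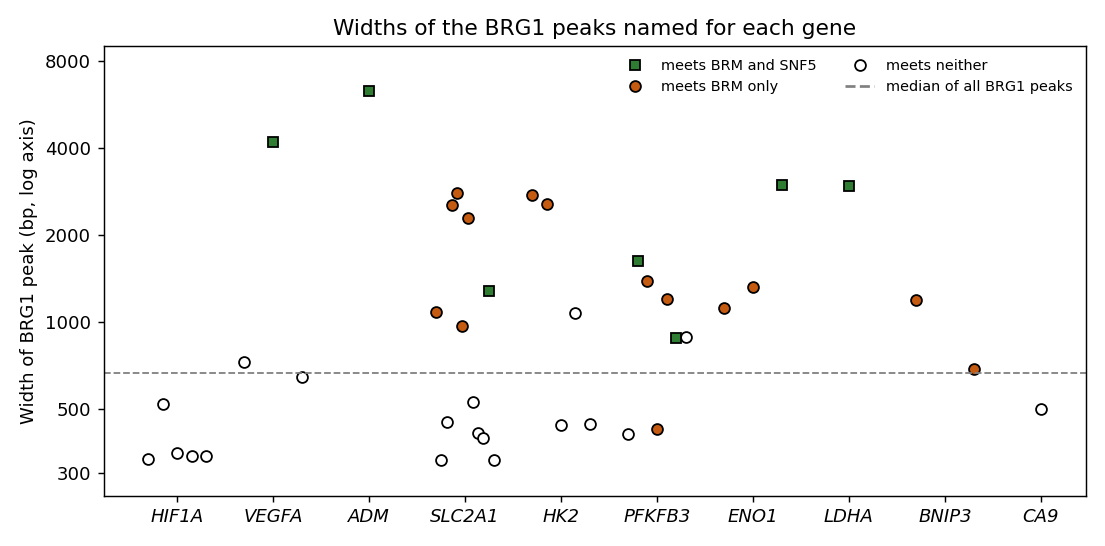
Width of each BRG1 peak named for each gene (vertical axis, bp, log axis), with the peaks of a gene in order of position. Squares met both BRM and SNF5, filled circles BRM only and open circles neither, and the dashed line is the median of all BRG1 peaks (667 bp). The squares lie between 875 and 6295 bp, and the open circles between 331 and 1074 bp.

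Which BRG1 peaks were shared went with their width. At 1 bp of overlap a wider peak has more bases that can meet another list, and no correction for this was made. The 7 peaks that met both other lists had a median of 2955 bp (875 to 6295), the 14 that met BRM only 1259 bp (424 to 2782) and the 19 that met neither 438 bp (331 to 1074). Over all BRG1 peaks the medians of these classes were 1606, 1038 and 510 bp. All 9 peaks of 2000 bp or more met a BRM peak (95.1% in the whole list), and 4 met SNF5 (51.7%). Of the 17 peaks at or under the list median, 1 met BRM (5.88%; 13.2% in the whole list), the 424 bp promoter peak of PFKFB3. Of the 23 wider than the median, 20 met BRM (87.0%; 58.2% in the whole list). Against the whole lists, BRG1 and BRM peaks of these genes were wide (medians 880 bp against 667, and 877 bp against 547), and SNF5 peaks were not (196 bp against 212). BRG1 peaks in these genes that were named for other genes are left out of these counts. Of the widest such peaks, those of 3230 and 1946 bp met BRM. Those of 1631, 1522 and 1406 bp, in ENO1, PFKFB3 and HK2, met neither list.

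The rest of the pathway was read from 3 lists with 42 other genes. BRG1 named 37 of them (88.1%), BRM 34 (81.0%) and SNF5 21 (50%), against 63.5%, 49.6% and 19.7% of protein-coding genes. Among 9 regulators of HIF, BRG1 named 8, BRM 7 and SNF5 3. EPAS1, which encodes the sister factor HIF-2 alpha, had 19 BRG1 and 2 SNF5 peaks, the widest BRG1 peak being 3603 bp in an intron. The widest BRG1 peaks of EGLN1, a prolyl hydroxylase that senses oxygen, ARNT, the partner of HIF1A, and HIF1AN, a hydroxylase that inhibits it, were 1877, 1600 and 1476 bp. VHL, which brings about the destruction of HIF1A, was named in no list.

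Among 18 other glycolysis genes, BRG1 named 15, BRM 13 and SNF5 8. The widest BRG1 peaks belonged to PKM, a pyruvate kinase (5196 bp, with 3 SNF5 peaks named for PKM), GAPDH (4642 bp, 2 SNF5 peaks), HK1, a second hexokinase (3652 bp, 4 SNF5 peaks), and SLC16A3, which exports lactate (3426 bp, 1 SNF5 peak). SLC2A3, PFKFB4 and ALDOC had no peak. Among 15 other HIF targets, these counts were 14, 14 and 10. NDRG1 (4704 bp), STC2 (3829 bp), MXI1, an antagonist of MYC (3615 bp), and DDIT4, an inhibitor of mTOR (3167 bp), had the widest BRG1 peaks, and their SNF5 peaks numbered 3, 1, 1 and 3. BNIP3L had no peak. The unnamed VHL, PFKFB4 and BNIP3L stood in regions with no SNF5 peak within 1 Mb, where BRG1 had 21, 35 and 8 peaks. LDHB, PGK1 and BHLHE40, picked after their values were seen and each with a BRG1 peak, also stood in regions with no SNF5 peak. The regions of the unnamed SLC2A3 and ALDOC had 5 and 13.

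**Figure D5:**
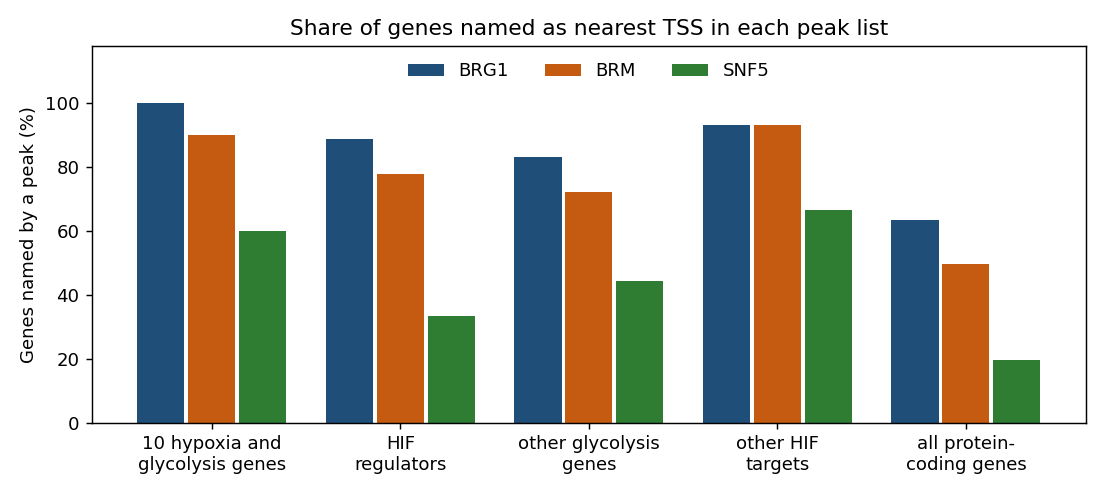
Percentage of genes named as nearest TSS by a BRG1, BRM or SNF5 peak (vertical axis) among the 10 genes, the 9 HIF regulators, 18 other glycolysis genes, 15 other HIF targets and all 20037 protein-coding genes. Within each group the share is highest or joint highest for BRG1 and lowest for SNF5, and for all protein-coding genes it is 63.5, 49.6 and 19.7%. The lists differ in length, at 51504, 22157 and 6489 peaks.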

How the data were processed

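The authors deposited 1 peak list per subunit for BRG1, BRM and SNF5 in SCHLAP1 cells, of the 24 samples in 12 groups of 2. Per the file headers, each peak has a start, end, width in bp, place, nearest TSS and distance. The build is hg38, and the tools deepTools 2.5.2, MACS2, Bowtie2 and SAMtools are listed with no role or order, per the submitters' processing notes. How samples were pooled and which threshold was applied is not given in the sources used here. Per the labels' protocols, fixation took 30 min in 0.3% formaldehyde and was stopped by 125 mM glycine.

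Peaks were assigned by the deposited gene name. Overlap means at least 1 bp, and intervals are exact (Clopper-Pearson) at 95%. For the shares over protein-coding genes, peak names were looked up in RefSeq (GRCh38.p14) as symbols or unambiguous synonyms, and the chromosome had to match. For BRG1 81.4% of peaks were placed, for BRM 86.9% and for SNF5 90.5%. RefSeq starts come from the span and strand; the VEGFA strand is textbook knowledge. With 1 list per subunit no test was run. The members and lists were chosen with earlier results of these data known. Named were all 10 genes, of each pathway list up to 4 genes with the widest BRG1 peak and every gene with no peak, and neighbours named by a peak within 1 kb of a member. LDHB, PGK1, BHLHE40, ENO2 and CA12 fall outside this rule and were named after their values were seen.

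The overlap routine was tested on simulated data: it found all 600 intervals that had been put on BRG1 peaks among 2000. Alternatives were other rules of overlap, of assignment and of promoters, and lists cut to their wider peaks or to equal numbers. Scripts ran in Python 3.11.15 (pandas 2.3.3, numpy 2.4.6, matplotlib 3.10.9, scipy 1.17.1). The histone mark and input samples were not used here, and some of the cell type markers looked up are not reported here.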

Additional observations from a re-analysis of the deposited data

How the results depend on the processing

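No paired analysis was possible because each subunit has 1 list without columns for its replicates, and leaving out a replicate could not be run for the same reason. Of 90 alternative values for 27 results, 25 moved, a share being taken as moved where it left the 95% interval of the reported one. For counts of genes and peaks, which have no such interval here, the larger relative changes were taken as moved. In the wider 50% of the lists, the BRG1 count went from 40 to 23 peaks and moved. The BRM count went from 28 to 21 and did not. Assigning peaks by the gene span or by a start within 1 kb found the reported 10 genes with BRG1 and 9 with BRM either way, while SNF5 gave 7 by span and 6 by start. Asking that a peak cover the start, an alternative chosen after seeing the data, left 3 genes for SNF5. The wider 50% of each list left 3 genes and 3 peaks for SNF5 and 23 peaks for BRG1. With each list cut to its 6489 widest peaks, 10 BRG1 and 16 BRM peaks were left. Among these, BRM named more of the 10 genes, other glycolysis genes and other HIF targets than BRG1. This cut is by width and does not match the lists for depth. BRG1 lost HIF1A, whose named BRG1 peaks are narrow, while the 3230 bp peak on its start is named for HIF1A-AS1. BRG1 then named 7 and BRM 9 of the 10 genes, 8 and 10 other glycolysis genes, 8 and 11 other HIF targets, and 3 and 2 HIF regulators. SNF5, whose list was not shortened, named 6, 8, 10 and 3 in these groups. Beside the BRG1 list cut by width, that is more HIF targets, and as many glycolysis genes and regulators. In the lists as deposited, BRG1 named 14 and SNF5 10 other HIF targets, 15 and 8 other glycolysis genes, and 8 and 3 regulators. With promoters taken as within 3 kb, their share was 67.5% for BRG1, 85.7% for BRM and 100% for SNF5, and in the wider 50% it was 100% for SNF5. Under a reciprocal overlap of 50%, 17.5% of BRG1 peaks met BRM and 25% of BRM peaks met BRG1. SNF5 peaks are too narrow for this rule: BRG1 and BRM peaks met them in 0% and SNF5 peaks met BRG1 in 0% and BRM in 0%. In the wider 50% of the lists 73.9% of BRG1 peaks met BRM, and the shares meeting SNF5 were 8.70% of BRG1 and 14.3% of BRM peaks, within their intervals. With equal numbers, 80% of BRG1 peaks met BRM and 50% met SNF5, and 68.8% of BRM peaks met BRG1 and 50% met SNF5. The lower counts of peaks follow from how the lists were shortened. The unknown depth of the lists limits what a missing peak can show.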

Other observations

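Most of these genes have a close relative in the same family, and the relatives were compared after their values were seen. Counts are given as BRG1, BRM and SNF5 peaks named for the gene. EPAS1 had 19, 8 and 2 peaks and HIF1A 5, 1 and 1, with gene lengths of 89291 and 52746 bp. HK1 had 17, 10 and 4 and HK2 5, 3 and 0, with lengths of 131883 and 59233 bp. The other relatives had no more SNF5 peaks than the described gene. SLC2A3, the glucose transporter GLUT3, had no peak, while SLC2A1 had 12, 9 and 1. PFKFB4 had none, and PFKFB3 had 7, 5 and 2. ENO2, the enolase best known from neurons, had 1, 1 and 0 against 3, 3 and 2 for ENO1, and LDHB had 1, 1 and 0 against 1, 2 and 2 for LDHA. With the peaks named for its synonym ENO1-IT1, ENO1 had 5, 3 and 3. BNIP3L had none and BNIP3 2, 1 and 0. CA12, a second carbonic anhydrase of the cell surface, had 7, 1 and 0 peaks, and CA9 1, 0 and 0, with lengths of 60469 and 7232 bp. The differences were not tested, since each subunit has 1 list.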
